A study of Homo sapiens with 12 samples.

Results

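SREBF2, SCAP, INSIG1 and INSIG2 make up the core of the sterol-sensing switch of animal cells, and the chromatin within 10 kb of their start sites was described in a liver cancer line with and without extra VPS72. The members are the peaks of 10 deposited ChIP-seq peak lists that have any base in these 4 windows. They number 103 of 1552170 peaks on chromosomes 1 to 22 and X, with 30 at SREBF2, 24 at SCAP, 26 at INSIG1 and 23 at INSIG2. The windows were set by gene and distance, and no peak value entered that rule. The genes themselves were chosen with earlier results of these data known. The start sites, in hg19, are chromosome 22 position 42229106 for SREBF2, chromosome 3 position 47517445 for SCAP, chromosome 7 position 155089486 for INSIG1 and chromosome 2 position 118846050 for INSIG2. SCAP lies on the minus strand and the other genes on the plus strand, and all distances below follow the direction of the gene. At the edge of the window, the outermost peak inside was an H3K4me1 peak with overexpression, 9902 bp from the SCAP start with 14 reads. The nearest peak outside was a FLAG peak with overexpression of 1 read, 10102 bp from the INSIG2 start, and the next was a control H3K27ac peak of 10 reads, 10214 bp from the SREBF2 start.

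SREBP proteins are transcription factors made as precursors in the membrane of the endoplasmic reticulum. SCAP, which senses cholesterol, carries them to the Golgi, where proteases release the part that enters the nucleus and switches on genes of lipid synthesis and uptake. INSIG1 and INSIG2 hold SCAP in the endoplasmic reticulum when sterols are plentiful. SREBF2 encodes SREBP2, which acts mainly on cholesterol genes, and is known to be among its own targets, as INSIG1 is among SREBP targets. The study's title concerns SREBP1 and fat synthesis downstream of VPS72.

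The cells were Huh7, a hepatocellular carcinoma line whose own VPS72 gene had been edited so that its product ends in a FLAG tag. Every library carries this tag, including the controls, and the labels describe colonies that survived blasticidin selection without saying how many were used. Control cells received lentivirus named lenti-HA in the titles (an empty vector), and overexpression cells received lentivirus carrying VPS72-FLAG, each for 24 h. VPS72, also called YL1, binds the histone variant H2A.Z as a part of the chromatin remodellers SRCAP and TIP60. Antibodies were to the FLAG tag, to the variant H2A.Z and its acetylated form (H2A.Zac), and to 2 histone marks. H3K27ac is found at promoters and enhancers in use, and H3K4me1 at enhancers and at the flanks of active promoters. FLAG in the control reports the endogenous tagged VPS72, and with overexpression it reports that and the viral protein. Cells without the tag were not analysed here, so nonspecific FLAG signal cannot be separated from VPS72. Each of the 12 libraries, 10 ChIP and 2 input, is the only one of its kind, so no comparison between conditions has a replicate check and no p-value is given for any. The identity of the cells was not checked against liver markers, because no annotation of the peaks' build was used here.

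The promoters are printed to show where they match a few fixed motifs of SREBPs and their partner factors. Other forms of these motifs, and bases farther upstream, were not searched. The 250 bases before each start were taken from RefSeq on GRCh38.p14, in which all 4 genes were found, and are given 5′ to 3′ in the direction of the gene. Capitals mark matches, on either strand, to the sterol regulatory element TCACNCCAC (SRE), the E-box CACGTG, the CCAAT box CCAAT or the GC box GGGCGG. Their places are chr22:41832855-41833104 on the plus strand for SREBF2, chr3:47475942-47476191 on the minus strand for SCAP, chr7:155297628-155297877 on the plus strand for INSIG1 and chr2:118088221-118088470 on the plus strand for INSIG2. INSIG2 has 2 entries in the table, and the more upstream start was used.
SREBF2: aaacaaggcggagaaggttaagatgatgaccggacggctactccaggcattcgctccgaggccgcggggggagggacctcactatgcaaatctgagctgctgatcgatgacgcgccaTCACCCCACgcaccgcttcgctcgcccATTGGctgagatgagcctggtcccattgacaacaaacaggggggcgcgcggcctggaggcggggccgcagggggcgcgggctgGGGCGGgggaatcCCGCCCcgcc
SCAP: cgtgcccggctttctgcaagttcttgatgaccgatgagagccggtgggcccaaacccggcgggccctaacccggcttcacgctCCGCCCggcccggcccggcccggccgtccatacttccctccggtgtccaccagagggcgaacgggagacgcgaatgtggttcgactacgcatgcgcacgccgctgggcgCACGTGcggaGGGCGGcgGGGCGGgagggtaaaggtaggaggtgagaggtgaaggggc
INSIG1: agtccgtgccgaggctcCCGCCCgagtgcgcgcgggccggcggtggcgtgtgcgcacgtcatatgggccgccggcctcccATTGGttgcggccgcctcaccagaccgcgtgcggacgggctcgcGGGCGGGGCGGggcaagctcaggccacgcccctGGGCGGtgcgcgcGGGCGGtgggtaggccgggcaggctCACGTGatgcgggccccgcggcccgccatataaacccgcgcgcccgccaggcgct
INSIG2: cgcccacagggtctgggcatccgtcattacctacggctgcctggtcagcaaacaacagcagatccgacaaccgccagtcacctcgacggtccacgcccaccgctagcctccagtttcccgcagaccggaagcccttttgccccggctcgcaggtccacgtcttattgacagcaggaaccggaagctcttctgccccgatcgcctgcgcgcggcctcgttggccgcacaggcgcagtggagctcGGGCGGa
These sequences and the peaks are in different builds, and their start sites were not matched base for base.

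The SREBF2 promoter held the SRE of the set, TCACCCCAC, beginning 133 bases before the start. A CCAAT box lay 106 bases before the start on the other strand, and GC boxes lay 23 and 10 bases before it. An SRE of these letters was in 0.883% of 35116 promoters of 27305 genes in the same 250 bases, a CCAAT box in 32.0% and a GC box in 42.6%. SCAP and INSIG1 held no such SRE, and each held an E-box, 58 and 55 bases before the start, which 6.34% of promoters had. SCAP had 3 GC boxes and INSIG1 had 5, of which a pair at 126 and 121 bases overlap, and INSIG1 also had a CCAAT box 170 bases before the start. INSIG2 differed from the others in having a single GC box, 7 bases before the start, and none of the other motifs. The cAMP response element TGACGTCA, to which ATF factors bind, and the AP-1 site TGANTCA were in none of the 4 promoters, against 1.65% and 6.57% of all promoters. All 4 promoters were rich in G and C, at 67.2% for SREBF2, 70% for SCAP, 78.4% for INSIG1 and 65.6% for INSIG2, against a median of 58%. They held 24, 30, 41 and 25 CpG, against a median of 11. A match to these letters describes the sequence and not a bound site.

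Other annotated genes lie near these starts. In the GRCh38.p14 gene table the non-coding SREBF2-AS1 overlaps the SREBF2 start and the non-coding INSIG1-DT overlaps the INSIG1 start. CCDC134 also lies within 10 kb of the SREBF2 start. Near SCAP the table lists only LOC124906372, SPMIP3P1 and LOC105377073, and near INSIG2 only LOC107985940. A peak at a shared start cannot be assigned to either partner.

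A value called height below is the number of reads at a peak's summit over the genome average of its library. The reads were worked out from each peak's deposited fold and −log10 p. The genome averages were 0.456 and 0.329 reads per bp for FLAG in control and overexpression, 1.397 and 1.641 for H2A.Z, 1.94 and 2.23 for H2A.Zac, 1.87 and 2.14 for H3K27ac, and 1.79 and 2.06 for H3K4me1. The FLAG libraries were thus the shallowest, and FLAG with overexpression had 0.722 times the average of its control. Intervals are 95% exact Poisson intervals on reads, or exact binomial intervals for a ratio, and cover counting error only. A peak counts as called where its q was 0.05 or less, and the lists also hold peaks past that limit. Where no peak is listed, the signal there is not known to be 0. No input peak lay within 20 kb of any of the 4 starts.

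Of the 20 combinations of gene and antibody, 14 had a called peak within 10 kb in the control and 14 with overexpression. The equal totals hide opposite changes in the calls of FLAG and H3K4me1. FLAG was called at 3 of 4 genes in the control and at 0 of 4 with overexpression, while H3K4me1 went from 2 to 4 genes. H2A.Z was called at 2 genes in each condition, H2A.Zac at 4 in each, and H3K27ac at 3 in the control and 4 with overexpression. For comparison, all 20 kb tiles of the genome that hold any deposited peak, 140922 in number, were scored in the same way, although tiles are not gene starts. A called peak was in 26.5% of tiles for control FLAG, 15.1% for H2A.Z, 21.2% for H2A.Zac, 14.2% for H3K27ac and 9.77% for H3K4me1. With overexpression the shares were 21.8% for FLAG, 8.46% for H2A.Z, 15.6% for H2A.Zac, 12.9% for H3K27ac and 29.4% for H3K4me1. The wider reach of H3K4me1 is therefore seen over the whole genome in the same libraries.

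**Figure D1:**
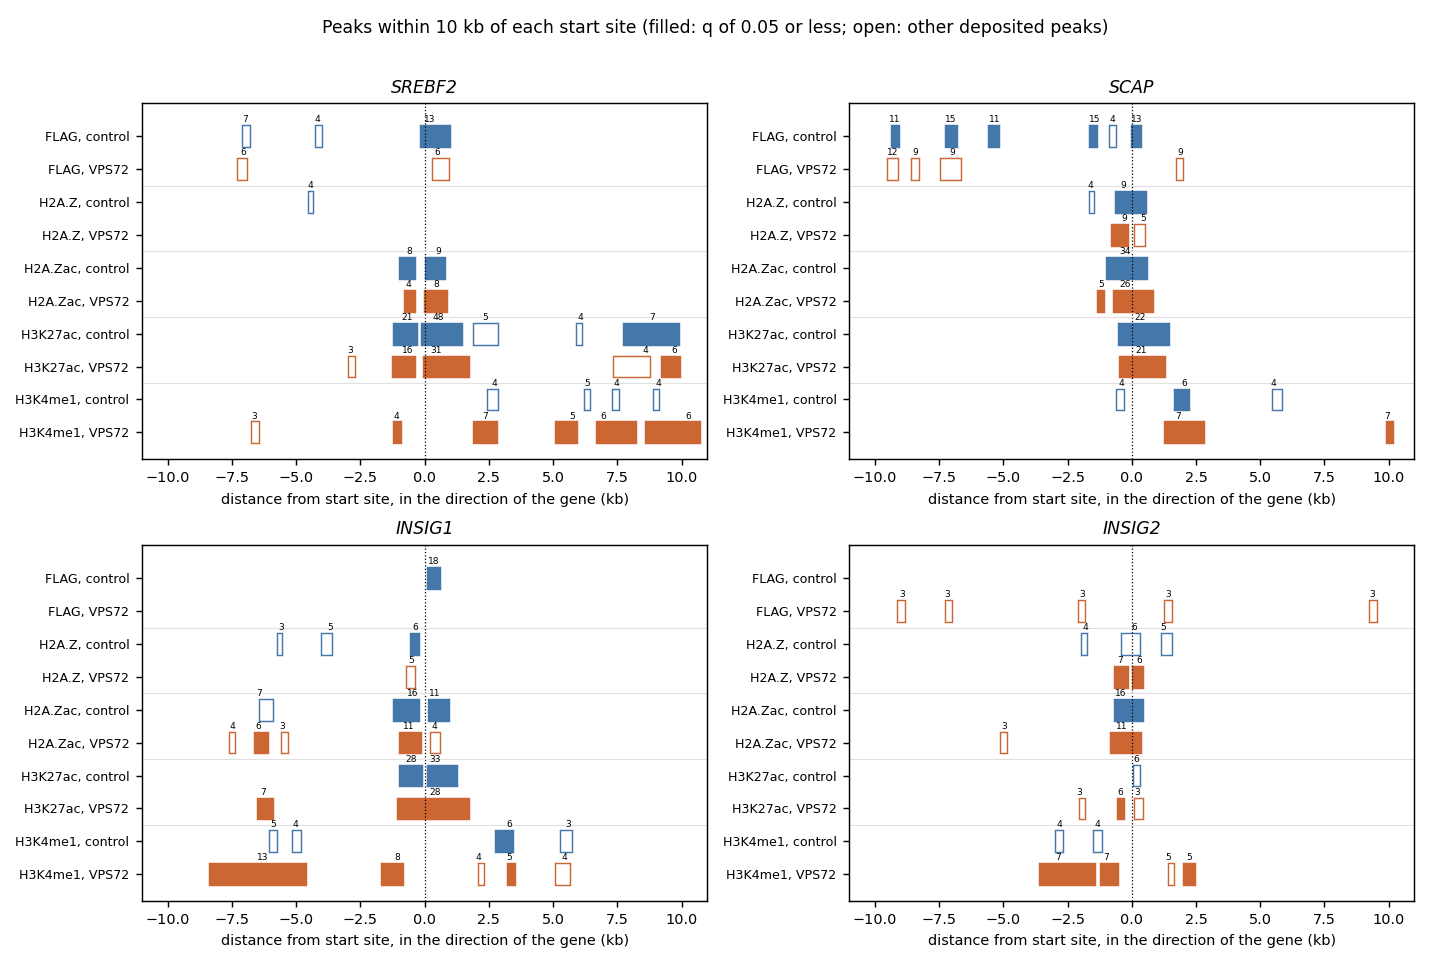
Peaks within 10 kb of the start sites of SREBF2, SCAP, INSIG1 and INSIG2, by distance from the start in kb (x axis) and by library (rows). Filled boxes are peaks of q 0.05 or less, open boxes the other deposited peaks, and the number above each is its height; acetylated marks stand at the starts and H3K4me1 boxes stand beside them, with more filled H3K4me1 boxes under VPS72 overexpression.

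The start site itself lay inside a called peak in 7 of 20 combinations in the control and 6 with overexpression. In the control these were FLAG at 2 genes, H2A.Z at 1, H2A.Zac at 2 and H3K27ac at 2. With overexpression they were H2A.Zac at 3 genes and H3K27ac at 3. H3K4me1 covered none of the 4 starts in either condition. With overexpression the called H3K4me1 peak nearest each start had its near edge 925 bp upstream of SREBF2, 855 bp upstream of INSIG1, 554 bp upstream of INSIG2 and 1254 bp downstream of SCAP.

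SREBF2, which encodes the transcription factor, had the highest H3K27ac summit of the 4 genes by height in both conditions, and by deposited fold in the control alone. The summit 0.52 kb past the start had 90 reads in the control and 66 at 0.43 kb with overexpression. These are heights of 48.1 (interval 38.7 to 59.1) and 30.8 (23.8 to 39.2), and the control peak ranked 171 of 64460 in its list by q. The height with overexpression was 0.64 times that of the control, with an interval of 0.459 to 0.889 that lies below 1. Over all called H3K27ac regions of the control that had a peak in the other condition, the median ratio was 0.748 (10th to 90th percentile 0.551 to 1.04), so the SREBF2 value falls within the range of the library as a whole. The interval lay below 1 at 9.78% of those regions. The deposited fold at this summit went from 30.3 to 11.4, a steeper drop than the height, and the local background of the peak caller beside it went from 1.00 to 2.20 times the genome average. A second H3K27ac peak 0.69 kb upstream had 40 reads in the control and 34 with overexpression, at heights of 21.4 and 15.9. A further, weaker stretch 7.3 to 9.9 kb inside the gene had 14 reads in the control and 12 with overexpression.

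H2A.Zac at SREBF2 formed peaks on each side of the start. The downstream peak had 18 reads in each condition, at heights of 9.28 (interval 5.50 to 14.7) and 8.06 (4.78 to 12.7). Its deposited fold went from 6.18 to 3.11, with a local background of 1.00 in the control and 2.21 times the genome average with overexpression. The upstream peak had 15 reads in the control and 10 with overexpression, at heights of 7.73 and 4.48. The highest H2A.Zac summit near the start was thus lower than at the other 3 genes, while the H3K27ac summit was the highest. Total H2A.Z had no listed peak within 1 kb of the SREBF2 start in either condition. Its nearest was a control peak of 6 reads 4.43 kb upstream that did not reach the q limit (−log10 q 0.667). Of all called H2A.Zac regions, 27.6% in the control and 32.1% with overexpression overlapped no deposited H2A.Z peak, so this arrangement is common in these libraries. A called H2A.Z peak had at least 8 reads in the control and 10 with overexpression.

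FLAG at SREBF2 was called in the control across the start, where the summit 0.21 kb downstream had 6 reads, a height of 13.2 (interval 4.83 to 28.6). With overexpression the peak there had 2 reads, a height of 6.07 (0.735 to 21.9), and did not reach the q limit. The ratio of 0.461 has an interval of 0.0456 to 2.58, so these counts cannot show a difference.

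H3K4me1 at SREBF2 was listed at 4 places in the control, with 7 to 9 reads each and none called. With overexpression 5 peaks were called, upstream of the start and over the first part of the gene. They lay 1.09 kb upstream with 9 reads and at summits 2.37, 5.75, 6.96 and 10.27 kb downstream with 14, 11, 12 and 12 reads. Called length within the window went from 0 to 5104 bp. At the 3 downstream places with a peak in both conditions, heights went from 4.46 to 6.81, from 4.46 to 5.84 and from 3.90 to 5.84. Each ratio interval, for 1.527, 1.309 and 1.496, includes 1.

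SCAP, the cholesterol-sensing escort, had the strongest H2A.Zac of the 4 genes. Its summit 0.25 kb upstream had 66 reads in the control and 58 with overexpression. The heights were 34.0 (interval 26.3 to 43.3) and 26.0 (19.7 to 33.6), a ratio of 0.763 (0.527 to 1.10). The peak spanned the start in each condition. H2A.Z lay over the same place with 13 and 15 reads, at heights of 9.30 (4.95 to 15.9) and 9.14 (5.12 to 15.1), a ratio of 0.983. SCAP was the only one of the 4 genes with a called H2A.Z peak in both conditions.

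H3K27ac at SCAP stood just past the start, with 42 reads in the control and 45 with overexpression. Heights were 22.4 (interval 16.2 to 30.3) and 21.0 (15.3 to 28.1), a ratio of 0.935 (0.600 to 1.46). The deposited fold pointed the other way, from 8.83 to 13.8, and the local background beside it went from 2.01 to 1.01 times the genome average. The reads themselves were nearly equal.

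FLAG at SCAP had the most called peaks of any gene, 5 in the control. The start peak had 6 reads, and the upstream peaks at 1.45, 5.34, 7.04 and 9.24 kb had 7, 5, 7 and 5 reads. The control local background at these 5 places was 1.68 to 3.38 times the genome average. With overexpression 4 peaks of 3 or 4 reads were listed and none was called. The highest was at 9.31 kb upstream, with 4 reads and a height of 12.1 (interval 3.31 to 31.1), beside a control height of 10.96 (3.56 to 25.6). No peak was listed at the start with overexpression.

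Called H3K4me1 at SCAP lay downstream of the start in both conditions. The control list also holds a peak of 7 reads 0.42 kb upstream and a peak of 8 reads 5.53 kb downstream, neither of them called. The peak 1.3 to 2.8 kb downstream had 11 reads in the control and 15 with overexpression, at heights of 6.13 (interval 3.06 to 10.98) and 7.30 (4.09 to 12.04). A further peak at 9.95 kb with overexpression had 14 reads and lies at the edge of the window. Called length went from 592 to 1647 bp, the smallest gain in bp of the 4 genes.

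**Figure D2:**
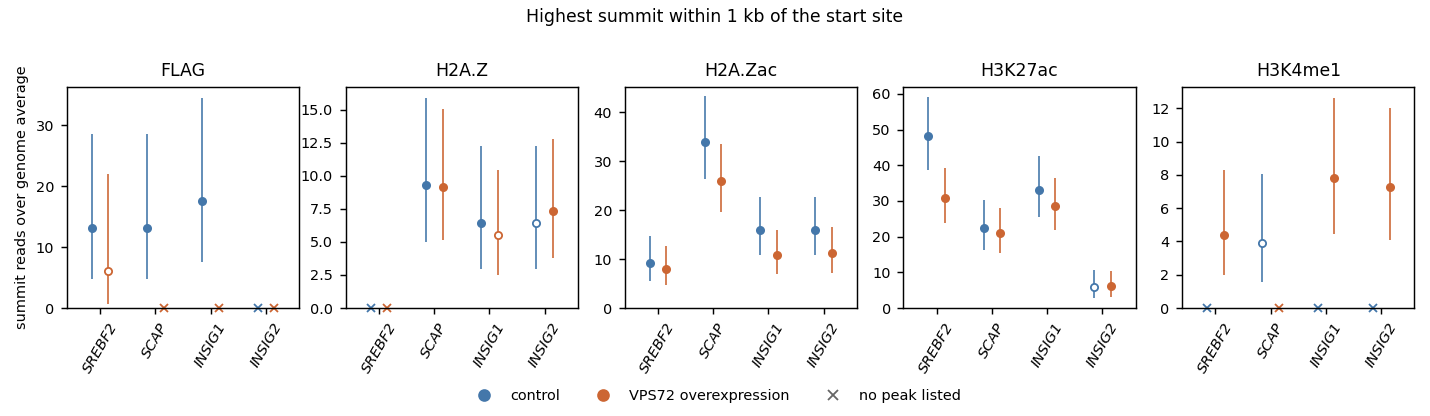
Height of the highest summit among peaks with any base within 1 kb of each start, by gene (x axis) and antibody (panels). The summit itself can lie slightly farther, as for H3K4me1 with overexpression. Heights are reads over the genome average with 95% counting intervals. Filled points are peaks of q 0.05 or less, and crosses mark that no such peak is listed, called or not. H3K27ac is highest at SREBF2 (48.1 in the control) and lowest at INSIG2 (5.88), and H2A.Zac is highest at SCAP (34.0).

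INSIG1, the sterol-regulated anchor, carried H3K27ac, H2A.Zac and H2A.Z beside its start. H3K27ac had 62 reads in the control and 61 with overexpression at a summit 0.42 kb downstream. The heights were 33.1 (interval 25.4 to 42.5) and 28.4 (21.8 to 36.5), a ratio of 0.859 (0.593 to 1.24). The control list holds separate peaks upstream and downstream of the start, and with overexpression these were a single peak 2.8 kb wide. The called length went from 2088 to 3424 bp, of which 2812 bp were this peak and 612 bp a separate peak upstream that is described below, while the summit did not become higher. The deposited fold went from 11.2 to 13.2, against a local background of 2.42 and 1.65 times the genome average.

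H2A.Zac at INSIG1 also lay on each side of the start. The upstream peak had 31 reads in the control and 24 with overexpression, at heights of 16.0 (interval 10.9 to 22.7) and 10.7 (6.89 to 16.0). The downstream peak, 0.38 kb past the start, had 21 and 10 reads, at heights of 10.8 (6.70 to 16.5) and 4.48 (2.15 to 8.23). That ratio, 0.414, has an interval of 0.174 to 0.918, and the −log10 q went from 8.99 to 0.232, so the peak was called in the control alone. It was the lowest of the 7 H2A.Zac ratios. Of 40081 called H2A.Zac regions of the control, 29649 had a peak with overexpression to compare. The ratio of 0.414 lies below the 10th percentile of these, which was 0.477 around a median of 0.652. The interval lay below 1 at 23.8% of them. H2A.Z upstream of the start had 9 reads in each condition and was called in the control (−log10 q 2.49) but not with overexpression (1.26). Heights were 6.44 (2.95 to 12.2) and 5.48 (2.51 to 10.4). FLAG was called in the control 0.35 kb downstream of the start with 8 reads, a height of 17.5 (7.57 to 34.6) and a local background of 3.12. No FLAG peak was listed within 10 kb of INSIG1 with overexpression.

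The place with the largest ratio between conditions lay 4.6 to 8.4 kb upstream of INSIG1. H3K4me1 there had 9 reads in the control and 26 with overexpression, at heights of 5.02 (interval 2.30 to 9.53) and 12.7 (8.26 to 18.5). The ratio was 2.52 (1.14 to 6.11), and the −log10 q went from 0.406 to 11.8. Among the 28 places with a peak in both conditions no other ratio was larger, and this was the only H3K4me1 ratio of the 8 whose interval excludes 1. Of 85651 called H3K4me1 regions with overexpression, 47276 had a control peak to compare. Among these the 90th percentile of the ratio was 1.67, and the interval lay above 1 at 0.647%. H3K27ac within this stretch, 6.29 kb upstream, was called with overexpression with 15 reads, a height of 6.995 (3.92 to 11.5), and no control peak was listed. A called H3K27ac region with overexpression lacked any control peak in 9.51% of cases. H2A.Zac in the same stretch was called with overexpression (−log10 q 3.69) and not in the control (0.184), yet the summit had 14 reads in both, at heights of 7.22 (3.94 to 12.1) and 6.27 (3.43 to 10.5). The control local background there was 3.57 times the genome average, against 1.00 with overexpression. All 3 marks passed the q limit at this place with overexpression and none did in the control. The genome held 38 such regions among 4375 called H3K4me1 regions with overexpression that overlap called H2A.Zac and H3K27ac, which is 0.869%. This count was made after the INSIG1 values had been seen, and for H2A.Zac the passing of the limit came with equal reads.

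Elsewhere at INSIG1, H3K4me1 was called 1.07 kb upstream with overexpression, with 16 reads and a height of 7.79 (interval 4.45 to 12.6), and no control peak was listed there. Inside the gene, 3.3 kb downstream, it was called in both conditions with 11 reads each, at heights of 6.13 and 5.35. Called H3K4me1 length went from 717 to 4913 bp. The added length thus lay mostly upstream of the start, where at SREBF2 it lay mostly downstream.

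INSIG2, the other anchor, had the least H3K27ac. In the control the only H3K27ac peak, 0.17 kb downstream, had 11 reads, a height of 5.88 (interval 2.93 to 10.5) and a −log10 q of 0.965, so it was not called. With overexpression a peak 0.44 kb upstream had 13 reads, a height of 6.06 (3.23 to 10.4), and was called with a −log10 q of 3.71. These highest summits lie at different places, and their ratio was 1.03 (0.426 to 2.54). At the downstream place, which had a peak in both conditions, the summit went from 11 to 7 reads, a ratio of 0.555 (0.183 to 1.57), the lowest of the 6 H3K27ac ratios. In the control the local background was 1.72 times the genome average, and with overexpression it was 1.00. The control INSIG2 interval for H3K27ac ends below the lowest bound of the other 3 genes, which was 16.2 at SCAP.

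H2A.Zac at INSIG2 was as high as at INSIG1, with 31 reads in the control and 25 with overexpression. Heights were 16.0 (interval 10.9 to 22.7) and 11.2 (7.24 to 16.5), a ratio of 0.701 (0.397 to 1.23). H2A.Z over the same place had 9 and 12 reads, at heights of 6.44 (2.95 to 12.2) and 7.31 (3.78 to 12.8), and was called with overexpression alone. Its deposited fold went from 2.60 to 4.91, with a local background of 2.04 in the control and 1.00 with overexpression. H3K4me1 upstream of the start had 2 control peaks of 7 reads, 2.84 and 1.36 kb away, neither called. With overexpression it had called peaks of 14 reads at 2.88 kb and 15 reads at 1.01 kb. Control heights were 3.90 (1.57 to 8.04) at both, and with overexpression 6.81 (3.72 to 11.4) and 7.30 (4.09 to 12.04). These overlapping peaks form a joined place with a ratio of 1.87 (0.718 to 5.42) by its highest summits. By the summits of lowest q the ratio was 1.74. A further H3K4me1 peak 2.25 kb downstream had 11 reads with overexpression and no control peak. FLAG had no listed peak at INSIG2 in the control, and 5 peaks of 1 read each with overexpression, none of them called. INSIG2 was the only one of the 4 genes without called FLAG in either condition.

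**Figure D3:**
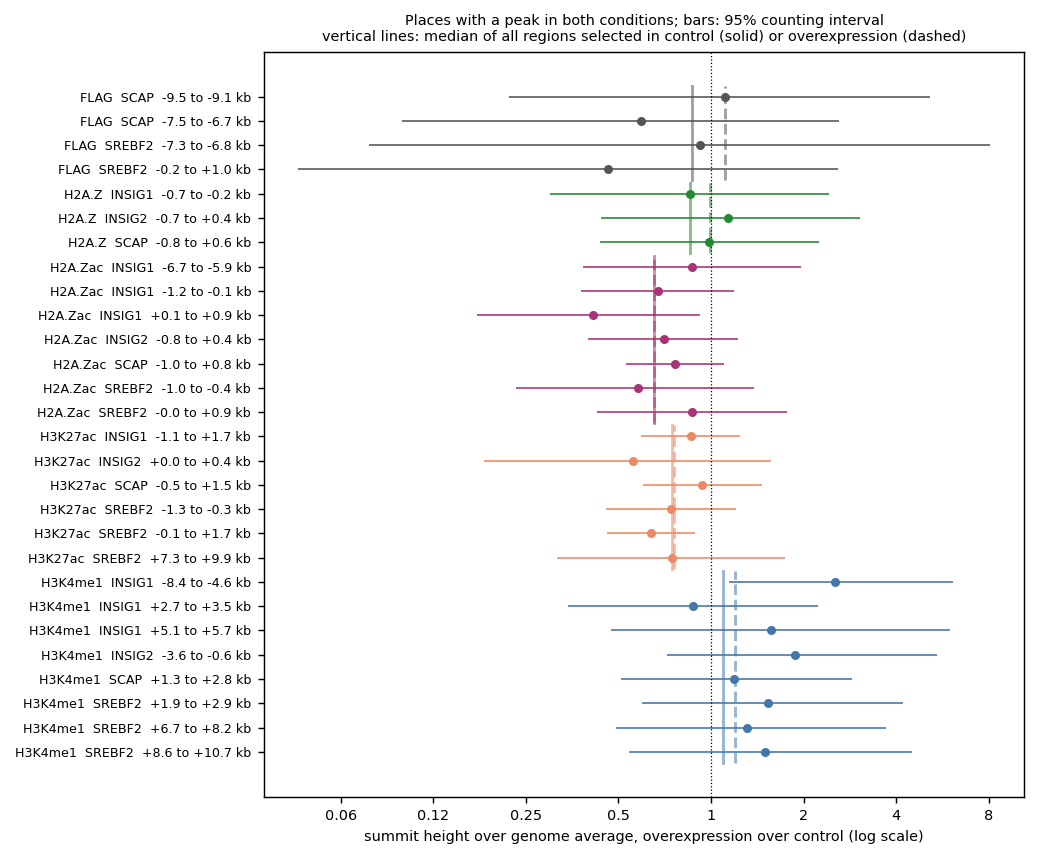
Ratio of heights, overexpression over control (x axis, log scale), at the 28 places with a peak in both conditions (rows, as edges in kb from the start), with 95% counting intervals. Vertical lines are medians over called regions of that antibody in the control (solid) or with overexpression (dashed) that had a peak in the other condition. The H2A.Zac and H3K27ac points lie below 1, as their medians do. Of the H3K4me1 points 7 of 8 lie above 1, and the intervals exclude 1 at 3 places.

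The ratios were set beside those of each library as a whole. When overlapping peaks of the 2 conditions were joined, the windows held 68 places, of which 28 had a peak in both, 17 in the control alone and 23 with overexpression alone. The ratio of a place uses the highest summit of each condition, and these need not lie at the same position. By antibody, control alone and overexpression alone held 6 and 7 places for FLAG, 6 and 0 for H2A.Z and 0 and 4 for H2A.Zac. For H3K27ac they held 2 and 4, and for H3K4me1 3 and 8. In the genome, 60.5% (H2A.Z) to 89.7% (H3K4me1) of called control regions had any peak in the other condition. Of called overexpression regions, 55.2% (H3K4me1) to 93.3% (H2A.Zac) did. The places include peaks that were not called, so these shares are not like for like. The genome ratios below are of called regions that had a peak in both conditions. For H2A.Zac, 0 of 7 places in both were higher with overexpression, with a median ratio of 0.701. In the genome 4.48% of called control regions and 5.99% of called overexpression regions were higher, with a median of 0.652 for either selection. For H3K27ac, 0 of 6 places were higher, with a median of 0.745, against 12.7% and 14.3% of regions and medians of 0.748 and 0.757. For H3K4me1, 7 of 8 places were higher, with a median of 1.51, against 62.3% and 76.4% of regions and medians of 1.091 and 1.1996. The 90th percentiles of those regions were 1.527 and 1.67, and the places here include peaks that were not called. For H2A.Z, 1 of 3 places was higher, against 28.6% and 49.3%. For FLAG, 1 of 4 was higher, with a median of 0.758, against 36.5% and 59.1% of regions and medians of 0.865 and 1.11, which lie on opposite sides of 1. No spike-in is named in the labels, so a shift of a whole library cannot be told apart from a difference in how well the antibody enriched.

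The absence of called FLAG peaks with overexpression was set beside the library in the same way. At the 4 FLAG places with a peak in both conditions, 0 ratio intervals excluded 1. All 7 called control FLAG places lacked a called peak with overexpression, and in the genome 59.8% of called control FLAG regions did. A called FLAG peak had at least 4 reads in each library, and the FLAG places here had at most 8 reads in the control. The gain in H3K4me1 calls also followed the library. Of 12 places called with overexpression, 10 had no called control peak, and in the genome 82.1% of called overexpression regions had none.

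Covered length shows the same split between antibodies. Called H3K4me1 peaks covered 1.309 kb of the 4 windows in the control and 15.006 kb with overexpression, and were longer at 4 of 4 genes. H3K27ac covered 8.81 and 8.95 kb, longer at INSIG1 and INSIG2 and shorter at SREBF2 and SCAP. H2A.Zac covered 5.98 and 5.78 kb at this limit, and 5976 and 3625 bp at a q of 1e-05 or less. H2A.Z covered 1.56 and 1.65 kb, but with all deposited peaks it covered 3988 bp in the control and 2402 bp with overexpression, and was shorter at 4 of 4 genes. FLAG covered 3.596 kb in the control and 0 with overexpression. At SREBF2 the called H3K27ac length went from 4730 to 3465 bp and at SCAP from 1994 to 1766 bp. At a q of 1e-05 or less the SREBF2 direction turned, with 2533 bp in the control and 2707 bp with overexpression, and the SCAP lengths stayed the same.

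**Figure D4:**
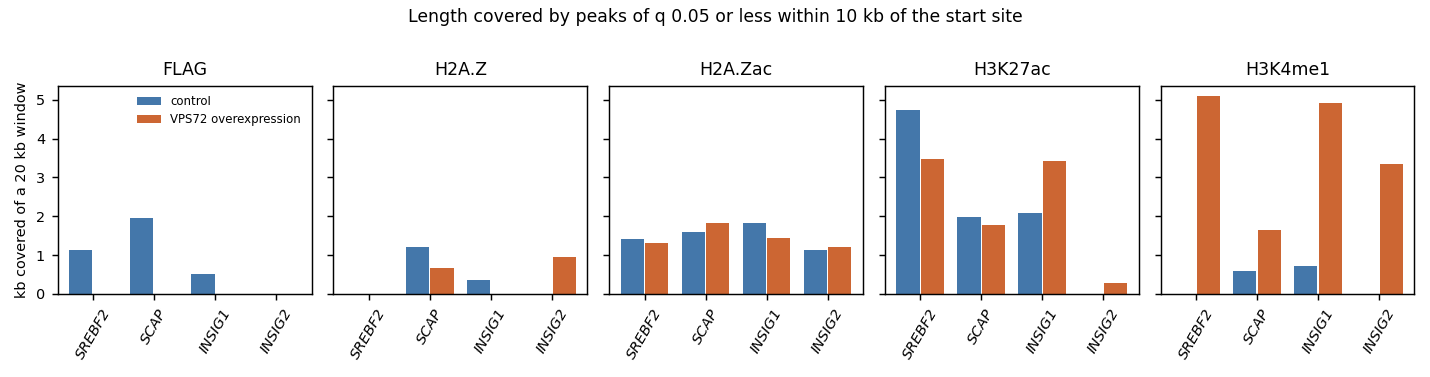
Length covered by peaks of q 0.05 or less within 10 kb of each start (y axis, kb of a 20 kb window), by gene and antibody, in the control and with VPS72 overexpression. H3K4me1 bars are longer with overexpression at all 4 genes, FLAG bars are present in the control at 3 genes and absent with overexpression, and the H2A.Zac bars are close to each other.

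The order of the genes differed by mark. By control H3K27ac height near the start the order was SREBF2, INSIG1, SCAP and INSIG2, with intervals of SREBF2 and INSIG1 that overlap, as do those of INSIG1 and SCAP. By control H2A.Zac it was SCAP, then INSIG1 and INSIG2 at the same 31 reads, then SREBF2, and the SCAP interval lies above those of the other 3. With overexpression the order by H3K27ac height was the same, but the intervals of SREBF2, INSIG1 and SCAP all overlap. By the deposited fold it was SCAP at 13.8, INSIG1 at 13.2, SREBF2 at 11.4 and INSIG2 at 4.27. The order by H2A.Zac height with overexpression was SCAP, INSIG2, INSIG1 and SREBF2, where the intervals of the last 3 overlap. By control FLAG, INSIG1 had 8 reads and SREBF2 and SCAP had 6 each, which cannot be told apart at this depth.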

How the data were processed

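Peak lists of 12 ChIP-seq libraries were used, 1 per antibody and condition, grouped by sample title. The genotype labels of some overexpression libraries name other VPS numbers and were read as VPS72 from the titles, and peak names of the control H3K4me1 list spell H3k3me1. FastQC, Trimmomatic, BWA and MACS2 are named in the submitters' processing notes, without versions. What MACS2 used as control is not given in the sources used here. In each list the authors deposited a fold (summit over local background, a ratio with the same constant added above and below) and, as −log10, the p and q of the summit, for peaks down to a p of 0.05. The notes name hg19 and hg38. All peaks lay within hg19 lengths on 23 of 23 chromosomes, and on 14 some lay past the hg38 end (GenomeInfoDb 1.38.1), so coordinates are hg19.

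The whole number of reads at a summit was recovered from fold and −log10 p under the MACS2 Poisson model, with a tolerance of 0.002 on −log10 p, relative above 1. In each ChIP library at least 99.9995% of peaks gave whole reads, and on simulated data 100% of 12134 peaks were recovered. Height is reads over the genome average, and the local background of MACS2 is given over the same average. Counts, lengths and heights were set side by side with no test. Named items were the 4 genes and, by name, their neighbours. Gene names and promoters came from RefSeq tables of GRCh38.p14, used without converting coordinates. Other genes of the pathway, cell type markers and sequences under peaks need an hg19 annotation or genome and were not analysed here. The members, motifs and lists were chosen with earlier results of these data known. Alternatives were the q limit, the window, the measure of height and the choice of summit. Scripts ran in Python 3.11.15, with scipy 1.17.1, numpy 2.4.6, matplotlib 3.10.9 and pandas 2.3.3.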

Additional observations from a re-analysis of the deposited data

How the results depend on the processing

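The 14 control and 14 overexpression combinations with a called peak became 19 and 18 with all deposited peaks and 7 and 8 at a q of 1e-05 or less. Within 1 kb they were 12 and 13, and within 5 kb or by summit within 10 kb they were 14 and 14. Starts inside a called peak, 7 and 6, became 12 and 10 when a peak within 500 bp sufficed, and 4 and 5 at a q of 1e-05 or less. Of 17 combinations with a peak in both conditions, 6 had the higher summit with overexpression. This became 10 of 17 by the deposited fold, 10 of 17 by reads over local background, and 2 of 12 for peaks with a base within 1 kb of the start. The ratios of those 12 did not change. The combinations left out, H3K4me1 at every gene and FLAG at SCAP, lacked such a peak in the control or with overexpression. H3K4me1 had the higher summit with overexpression at every gene. The direction turned at 4 combinations by the deposited fold and by reads over local background. The log2 ratios were 0.36 and 0.47 for SCAP H2A.Z (-0.03 by height), 0.64 and 0.89 for SCAP H3K27ac (-0.10), 0.24 and 0.33 for INSIG1 H3K27ac (-0.22) and 0.12 and 0.32 for INSIG2 H2A.Zac (-0.51). In 3 further combinations the direction held and the ratio moved by over 1.5 times by the fold and over local background, from 0.869 to 0.504 and 0.394 for SREBF2 H2A.Zac, from 0.64 to 0.377 and 0.292 for SREBF2 H3K27ac, and from 1.14 to 1.89 and 2.31 for INSIG2 H2A.Z. INSIG2 H3K27ac moved from 1.03 to 1.77 over local background alone. These alternatives divide by the local background, and the fold also adds a constant to reads and background. Taking the summit of the lowest q, or within 1 kb, turned no direction and moved no ratio past its counting interval. H3K4me1 covered more with overexpression at 4 of 4 genes at a q of 0.05 and with all deposited peaks, and at INSIG1 alone at 1e-05. No called FLAG peak of these genes reached a q of 1e-05. With all deposited peaks FLAG covered 4464 bp in the control and 4313 bp with overexpression, of which 1450 bp were peaks of 1 read at INSIG2. It was then shorter at 3 of 4 genes and still at 0 at INSIG1. Depth limits FLAG most, with 1 to 8 reads at each summit. No paired analysis was possible because each condition has 1 library per antibody, and no replicate could be left out.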

Other observations

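Beyond the windows, 10 to 20 kb from the starts, 9 further called peaks were listed, all at SREBF2 and INSIG1, and 5 of them were H3K4me1 with overexpression. Inside SREBF2 the H3K4me1 run continued at 10.9 to 14.5 kb, with 15 reads and a height of 7.30 (interval 4.09 to 12.04), and at 14.8 to 16.4 kb, with 12 reads and a height of 5.84 (3.02 to 10.2). Downstream of the INSIG1 start, at 19.3 kb, H2A.Zac had a called control peak of 18 reads and height 9.28 (5.50 to 14.7), and no peak was listed there with overexpression. In the genome, 74.0% of called control H2A.Zac regions had any peak with overexpression. H3K4me1 over the stretch at 19.3 kb was called in both conditions, with 13 reads in the control and 16 with overexpression, at heights of 7.25 (3.86 to 12.4) and 7.79 (4.45 to 12.6).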
